A study of Mus musculus with 13 samples.

Results

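The clustered histone genes were taken as every protein-coding gene of GENCODE release M21 whose symbol begins with Hist1h, Hist2h, Hist3h, or Hist4h, 67 of the 54838 genes in the count table of this series. They comprised 6 genes for the linker histone H1, 18 for H2A, 18 for H2B, 12 for H3, and 13 for H4. Of these, 54 lay on chromosome 13 (the Hist1 cluster), 10 on chromosome 3 (Hist2), 2 on chromosome 11 (Hist3), and 1 on chromosome 6 (Hist4h4). Each library held RNA of 50000 Lin- cKit+ BM cells from 1 mouse, a sort gate for hematopoietic stem and progenitor cells (HSPCs), and the design sets mice with both mutant alleles beside mice with either one or none. The groups were 3 control mice that carried Mx1-Cre alone, 3 p53mut mice (Mx1-Cre; p53 R172H/+), 3 NrasG12D mice (Mx1-Cre; Nras G12D/+), and 4 NPmut mice (Mx1-Cre; p53 R172H/+; Nras G12D/+). For the NrasG12D mice the titles read G12D, although the genotype field of these 3 samples reads G21D. All mice were C57BL/6J. The mutant alleles sit at the endogenous loci behind a stop cassette that Cre removes, and Mx1-Cre is switched on by interferon in many tissues besides the BM.

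To turn on Mx1-Cre, pI-pC, which mimics viral RNA, was injected 3 times at 100 μg into control, p53mut, and NrasG12D mice of about 6 weeks. NPmut mice are labelled as untreated and were moribund, and the titles call the injected mice age-matched. Genotype, injections, and stage of disease therefore cannot be told apart in any comparison with NPmut mice. In bulk cells, fewer cells of a type and less RNA per cell cannot be told apart either.

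Most clustered histone genes are replication-dependent: they supply the nucleosome core (H2A, H2B, H3, H4) and its linker (H1) while DNA is copied, and their RNA is made and destroyed with S phase. Their mRNA ends in a conserved stem-loop instead of a poly(A) tail, and the stem-loop is bound by the protein SLBP. A library made with poly(dT) loses most of this RNA, whereas the libraries used here were made from total RNA with random priming and kept it.

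The stem-loop is shown because it is what sets this RNA apart from other mRNA. A search of the GENCODE transcripts for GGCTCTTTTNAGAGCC and GGCCCTTTTNAGGGCC on the gene strand found a match in 42 of the 67 genes, and 11 gene models hold no UTR in which a match could stand. Of the first pattern, 1 form in 26 members was the most frequent, and the next was in 6 members, while all 9 matches in H4 genes were to the second pattern. A form of each pattern is shown, with the whole stem-loop in capitals.
H1, H2B, and H3 genes, 6 members: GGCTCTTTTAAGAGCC
H4 genes, 7 members: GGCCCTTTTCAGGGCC

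The promoters of 62 members were found in RefSeq as windows from 250 bases before to 50 after the start. They are shown for Hist1h2an, Hist2h2aa2, and Hist3h2a, which passed the test between NPmut and control mice, and for 1 highly expressed member each of H1, H3, and H4, so that the shared elements can be seen. Capitals mark TATAAA and TATATA on the gene strand and CCAAT and the octamer ATTTGCAT on either strand, and TATATA can overlap TATAAA.
Hist1h2an (RefSeq symbol H2ac22, GRCm38.p6 chr13:21787199-21787498, minus strand): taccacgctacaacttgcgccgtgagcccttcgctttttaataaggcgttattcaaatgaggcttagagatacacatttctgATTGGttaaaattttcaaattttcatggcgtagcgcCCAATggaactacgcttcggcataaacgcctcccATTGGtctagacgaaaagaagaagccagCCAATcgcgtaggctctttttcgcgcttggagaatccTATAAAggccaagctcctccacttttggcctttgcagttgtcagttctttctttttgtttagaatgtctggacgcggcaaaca
Hist2h2aa2 (RefSeq symbol H2ac19, GRCm38.p6 chr3:96240325-96240624, minus strand): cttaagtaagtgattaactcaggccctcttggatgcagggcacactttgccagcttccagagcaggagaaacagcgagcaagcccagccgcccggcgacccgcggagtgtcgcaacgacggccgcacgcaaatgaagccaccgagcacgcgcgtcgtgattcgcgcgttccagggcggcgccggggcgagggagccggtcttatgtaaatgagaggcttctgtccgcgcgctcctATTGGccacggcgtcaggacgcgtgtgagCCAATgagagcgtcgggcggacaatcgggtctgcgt
Hist3h2a (RefSeq symbol H2aw, GRCm38.p6 chr11:58954435-58954734, plus strand): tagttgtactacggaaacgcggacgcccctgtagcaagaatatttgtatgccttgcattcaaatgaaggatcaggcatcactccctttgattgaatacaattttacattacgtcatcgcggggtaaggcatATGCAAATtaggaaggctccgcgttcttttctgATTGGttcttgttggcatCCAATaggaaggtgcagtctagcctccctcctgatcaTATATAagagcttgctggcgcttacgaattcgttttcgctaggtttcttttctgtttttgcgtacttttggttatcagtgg
Hist1h1b (RefSeq symbol H1f5, GRCm38.p6 chr13:21780576-21780875, minus strand): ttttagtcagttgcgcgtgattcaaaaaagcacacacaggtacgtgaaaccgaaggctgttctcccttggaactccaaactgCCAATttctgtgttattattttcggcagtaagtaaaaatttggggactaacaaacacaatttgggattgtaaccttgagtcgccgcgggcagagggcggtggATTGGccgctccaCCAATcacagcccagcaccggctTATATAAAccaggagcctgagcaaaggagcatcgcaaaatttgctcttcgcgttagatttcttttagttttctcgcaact
Hist2h3b (RefSeq symbol H3c13, GRCm38.p6 chr3:96268404-96268703, plus strand): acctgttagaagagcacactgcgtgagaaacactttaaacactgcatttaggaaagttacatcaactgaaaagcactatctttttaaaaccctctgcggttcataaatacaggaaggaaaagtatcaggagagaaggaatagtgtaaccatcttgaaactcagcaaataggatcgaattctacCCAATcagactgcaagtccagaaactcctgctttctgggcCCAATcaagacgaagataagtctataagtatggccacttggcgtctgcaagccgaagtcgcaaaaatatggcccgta
Hist1h4d (RefSeq symbol H4c4, GRCm38.p6 chr13:23581318-23581617, plus strand): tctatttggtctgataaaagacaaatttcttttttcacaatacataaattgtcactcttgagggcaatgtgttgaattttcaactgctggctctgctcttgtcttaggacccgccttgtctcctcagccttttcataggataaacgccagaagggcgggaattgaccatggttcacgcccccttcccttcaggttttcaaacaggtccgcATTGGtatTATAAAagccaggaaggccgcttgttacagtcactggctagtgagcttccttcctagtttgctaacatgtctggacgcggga
The first window also holds most of the promoter of Hist1h2bp, an H2B gene read in the opposite direction from a start 243 bases away. CCAAT was present in every window of H1 (6), H2A (18), H2B (17), and H3 (10) genes but in 3 of 12 windows of H4 genes, against 37.4% of the 32851 promoters in the table. The octamer was in 7 H2A and 7 H2B windows, in none of the other classes, and in 1.74% of all promoters. TATAAA was in 30 of the 63 member windows (47.6%) and in 8.32% of all promoters. These are matches of letters, not measured sites.

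All but 1 of the 67 genes had at least 1 read, and 63 passed the filter on low counts. The 4 that did not were Hist1h2aa, Hist2h2aa1, Hist1h2br, and Hist2h3c1, and Hist2h3c1, which lies within Gm20634 on the same strand, was listed at 0 in every mouse. Gm20634 itself had 45 reads over all mice. Of the stretches of 50 bases in Hist2h3c1, 100% also occur in other genes, so that its reads cannot be assigned with certainty. Between 88109 and 357568 reads per mouse fell on histone genes, of library totals from 12576174 to 29124022. Per exonic length (RPKM), H2A genes made up 39.9% ± 0.248 (SD, n = 3) of the histone RNA in control mice, H1 genes 24.3% ± 0.294, H4 genes 16.2% ± 0.538, H2B genes 11.7% ± 0.413, and H3 genes 7.91% ± 0.333. In NPmut mice the same shares were 42.0% ± 2.13, 23.5% ± 1.91, 16.1% ± 2.01, 11.0% ± 0.958, and 7.44% ± 0.771 (n = 4). Each of these 5 shares differed between the 2 groups by less than the SD of the NPmut mice. The shares depend on the gene models: divided by coding length, H1 and H2A genes came close to each other in control mice, at 29.0% and 30.5%, and H4 genes were at 20.8%.

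Levels are given as CPM, the count of a gene scaled to library size. Stem and progenitor markers (Kit, Cd34, Mecom, Hlf, Cd48) summed to between 623 and 1105 CPM in every mouse (3 of the 5 passed as lower in NPmut mice). The 6 monocyte markers summed to 1636 to 2437 CPM in NPmut mice and to 509 to 979 CPM in the other 9 mice, and 4 of the 6 passed the test as higher in NPmut mice. The 5 megakaryocyte markers summed to 13.6 to 69.0 CPM in NPmut mice against 125 to 256 CPM in the others, and all 5 passed as lower. Erythroid markers were at 12.7 to 78.3 CPM in NPmut mice and at 83.5 to 153 CPM elsewhere, with 1 of 6 lower. Of all genes tested between NPmut and control mice, 5.38% passed as higher and 5.54% as lower. None of the 6 neutrophil and granulocyte-macrophage progenitor markers passed, and their sum, at 9075 to 18148.7 CPM in the other 12 mice, was 22863 CPM in NPmut mouse 2. The 1461 genes for olfactory and vomeronasal receptors, which serve in sensory neurons, summed to 129, 189, and 96.5 CPM in control mice, 57.0 to 139 CPM in p53mut mice, 38.3 to 43.8 CPM in NrasG12D mice, and 17.8, 52.3, 57.3, and 18.7 CPM in NPmut mice, 0.264 times the control mean. The part of these shifts in the histone results was not tested.

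Summed over all 67 genes, histone RNA was at 7099, 7302, and 6136 CPM in the 3 control mice and at 7344, 13790.3, 8427, and 7474 CPM in the 4 NPmut mice. On this TMM scale all 4 NPmut mice lay above all 3 control mice, mouse 2 by the widest margin. As plain shares of the library the groups overlapped, with histone reads at 0.731%, 0.738%, and 0.655% in control mice and at 0.728%, 1.23%, 0.842%, and 0.701% in NPmut mice. The NrasG12D mice had 0.671%, 0.873%, and 0.791%. The p53mut mice lay at 7493, 7960, and 7669 CPM and the NrasG12D mice at 6630, 8830.1, and 7771 CPM. The group mean of NPmut mice was 1.35 times that of control mice, a log2 ratio of 0.44 that fell to 0.18 without mouse 2.

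**Figure D1:**
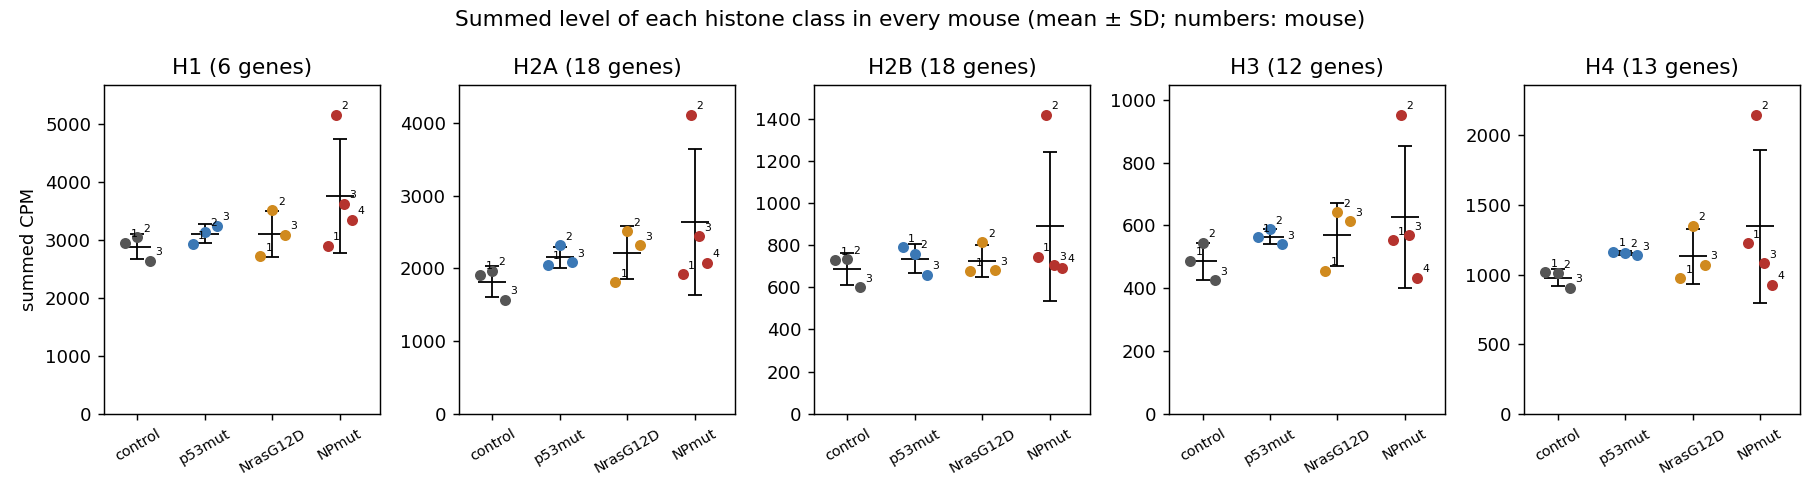
Summed CPM of the genes of each histone class (vertical axis) in every mouse of the 4 groups (horizontal axis), with the mouse number beside each point and bars for the mean ± SD. NPmut mouse 2 is the highest of the 13 mice in all 5 classes, for example at 2148 CPM for H4 against 905 to 1352 CPM in the other mice.

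The high level in NPmut mouse 2 ran through all 5 classes. This library was also the deepest of the 13, had the lowest TMM factor (0.892), the highest monocyte marker sum (2437 CPM), and the lowest erythroid and megakaryocyte marker sums (12.7 and 13.6 CPM), and the part of these in its histone level was not tested. Of the 63 tested members, 58 were at their highest in this mouse, whereas 25.5% of all 17795 genes tested were. Relative to the control mean, its median member was 2.05 times as high, with medians of 1.76 for H1, 2.17 for H2A, 2.05 for H2B, 1.91 for H3, and 2.21 for H4 genes. The 5 exceptions were Hist1h1t, Hist3h2a, Hist2h2be, Hist3h2ba, and Hist1h4m. In the other 3 NPmut mice the median log2 difference from the control mean was 0.17, 0.20, and 0.06, beside 1.04 in mouse 2. The p53mut mice were at 0.21, 0.22, and 0.19, and the NrasG12D mice at -0.03, 0.35, and 0.15. The median over all genes tested lay between -0.01 and 0.01 in each of the 13 mice.

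**Figure D2:**
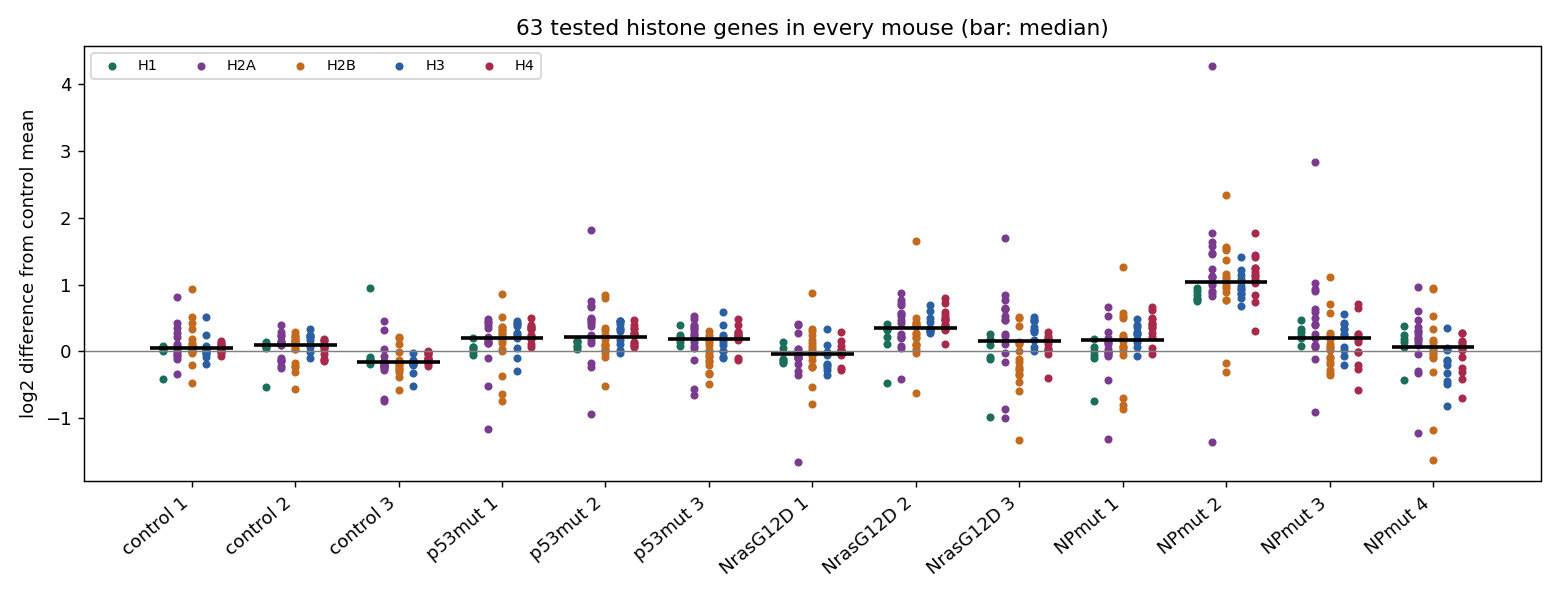
Log2 difference in CPM (prior count 2) from the control mean (vertical axis) of the 63 tested histone genes in each of the 13 mice (horizontal axis), coloured by class, with a bar at the median. The bar stands at 1.04 in NPmut mouse 2 and between -0.16 and 0.35 in the other 12 mice.

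The spread between NPmut mice was widest with the same mouse included. The median SD of a member over the 4 NPmut mice was 0.52 on the log2 scale and fell to 0.21 without mouse 2, beside 0.35 and 0.24 over all genes tested. In control mice the median SD of a member was 0.20, in NrasG12D mice 0.27, and in p53mut mice 0.12, the last against 0.22 over all genes. At the low end stood control mouse 3, in which 29 of the 63 members were at their lowest, beside 7.50% of all genes.

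Against control mice, NPmut mice had 3 histone genes that rose and 1 that fell (edgeR quasi-likelihood test, adjusted p under 0.05), 4 of 63, or 3 higher against a background of 5.38% of all genes tested and 1 lower against 5.54% (10.9% in either direction). Those that rose were the H2A genes Hist1h2an and Hist2h2aa2 and the H2B gene Hist1h2bp, and the one that fell was the H2A gene Hist3h2a. Of the 63 fitted changes, 60 were above 0, with a median log2 fold change of 0.41 against 0.01 over all genes, and 23 (36.5%) had an unadjusted p under 0.05, as did 25.6% of all genes. Without NPmut mouse 2, 50 of 62 were above 0 (49.2% of all genes), and the median was 0.14 against -0.01 over all genes. Hist1h2an and Hist3h2a were the 2 that passed there, where 1892 of 17585 genes did. Without control mouse 3, none of 64 passed (edgeR, with the share of all genes given under the processing below), and the median was 0.35. With other single libraries left out the count went up to 8 (without NPmut mouse 4, against 12.3% of all genes). It was 2 with only the compared groups fitted (against 5.45% of all genes), 9 by DESeq2 (against 15%), 24 of 66 with no filter on low counts (against 6.33%), and 19 with the replicate number as a block (against 15.5%), so that the members' share lay below, near, or above the background by setting.

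Hist1h2an (ENSMUSG00000069309, chromosome 13, 21786826 to 21787218, minus strand, a single exon annotated as coding sequence only) stood at 101, 114, and 99.2 CPM in control mice and at 151, 310.3, 213, and 159 CPM in NPmut mice. The groups did not overlap, and NPmut mice were higher by 0.995 on the log2 scale (edgeR, SE 0.24, adjusted p = 0.0171), just under a 2-fold change. The p53mut mice, at 141, 145, and 146 CPM, also lay above all control mice, and the NrasG12D mice spread over 100.1, 191, and 151 CPM. Without NPmut mouse 2 the gene still passed (log2 fold change 0.73, adjusted p = 0.0302). Of its stretches of 50 bases, 85.8% also occur in other genes, so that its reads can be shared with them.

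Hist1h2bp (ENSMUSG00000069308, chromosome 13, 21787461 to 21789213, plus strand), the H2B gene that shares the promoter region above with Hist1h2an, was a low member, at 9.20, 7.11, and 9.07 CPM in control mice and 12.2, 24.3, 10.2, and 16.3 CPM in NPmut mice. NPmut mouse 3 lay just above the highest control mouse. The log2 fold change was 0.90 (SE 0.25, adjusted p = 0.0299), and without mouse 2 it was 0.60 (adjusted p = 0.0569).

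Hist2h2aa2 (ENSMUSG00000063954, chromosome 3, 96239749 to 96240276, minus strand) measured 109, 73.0, and 66.3 CPM in control mice and 128, 164, 114, and 112 CPM in NPmut mice, with control mouse 1 close to the lowest NPmut mice (log2 fold change 0.65, SE 0.18, adjusted p = 0.0325). Without mouse 2 it did not pass (0.51, adjusted p = 0.0729). Its sequence is a limit, since all of its stretches of 50 bases occur in other genes too, among them Hist2h2aa1, whose coding sequence is identical and which was listed at 0.154 CPM or less.

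Hist3h2a (ENSMUSG00000078851, chromosome 11, 58954685 to 58956830, plus strand), the H2A gene of the small Hist3 cluster, went the other way, at 11.5, 10.6, and 15.5 CPM in control mice and 4.95, 4.78, 6.54, and 5.26 CPM in NPmut mice. The 4 NPmut mice lay close together and below every control mouse (log2 fold change -1.22, SE 0.26, adjusted p = 0.00775), and this was the 1 histone gene of 63 that passed with at least a 2-fold change, against 6.01% of all genes. Without mouse 2 it passed as well (-1.17, adjusted p = 0.0128). The single mutants covered the range from NPmut to control levels, at 5.46, 11.0, and 11.3 CPM in p53mut mice and 11.5, 9.30, and 6.80 CPM in NrasG12D mice. The model overlaps exons of Trim17 on the same strand by 708 of its 2146 bases, but Trim17 had 18 reads in all 13 mice together. Of the stretches of 50 bases in Hist3h2a, 31.5% also occur in other genes, and 100% of those in its coding sequence do. Its reads can therefore be shared with other genes too.

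**Figure D3:**
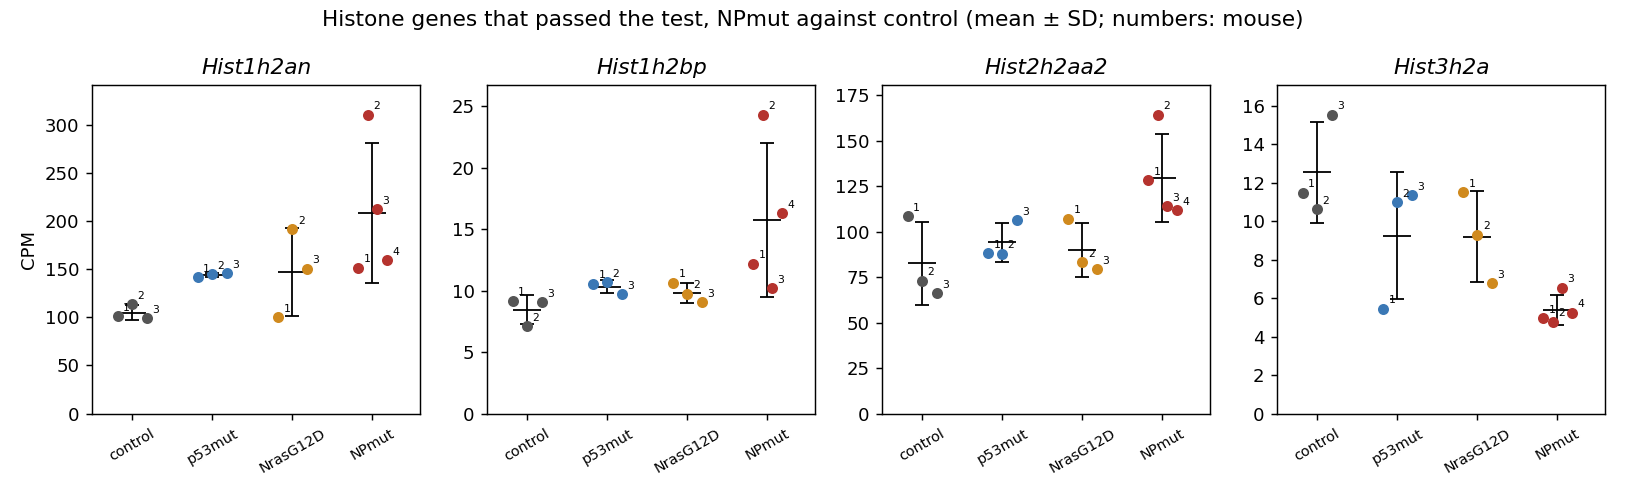
CPM (vertical axis, from 0) of the 4 histone genes that passed the test between NPmut and control mice, in every mouse of the 4 groups (horizontal axis), with the mouse number beside each point and bars for the mean ± SD. Hist1h2an, Hist1h2bp, and Hist2h2aa2 have no NPmut mouse at or below a control mouse, and Hist3h2a has all 4 NPmut mice between 4.78 and 6.54 CPM, below the lowest control mouse at 10.6 CPM.

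In each class the 2 members with the highest mean RPKM did not pass in this comparison. Among linker histones the first was Hist1h1b, at 531, 564, and 451 CPM in control mice and 538, 961, 593, and 585 CPM in NPmut mice (log2 fold change 0.38, SE 0.17, adjusted p = 0.184). Its control and NPmut values overlapped. Hist1h1a, the next in rank, had a mean of 470.1 CPM ± 35.1 in control mice and 627 CPM ± 189.9 in NPmut mice, without overlap between the groups, and did not pass (adjusted p = 0.154).

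For H2A the leading gene was Hist1h2ak, at 288, 292, and 228 CPM in control mice and 265, 498, 283, and 285 CPM in NPmut mice. All NPmut mice but mouse 2 lay within the control range (log2 fold change 0.31, SE 0.19, adjusted p = 0.325). The next, Hist1h2ab, averaged 225 CPM ± 28.1 in control and 292 CPM ± 82.1 in NPmut mice (adjusted p = 0.262). For H2B, Hist1h2bb had 84.0, 94.8, and 75.0 CPM in control mice and 99.7, 167, 74.3, and 79.9 CPM in NPmut mice (log2 fold change 0.32, SE 0.22, adjusted p = 0.409), and its fitted change was -7.35e-05 without mouse 2. Hist1h2bj averaged 72.6 CPM ± 8.01 and 91.9 CPM ± 37.2 and did not pass either.

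For H3, Hist2h3b was at 73.5, 72.4, and 62.1 CPM in control mice and 77.9, 146, 87.4, and 63.4 CPM in NPmut mice (log2 fold change 0.44, SE 0.22, adjusted p = 0.242). Every stretch of 50 bases in its model occurs elsewhere in the transcripts. Hist1h3e averaged 123 CPM ± 18.6 in control and 151 CPM ± 49.0 in NPmut mice (adjusted p = 0.376). Hist1h4d led H4, with 327, 321, and 272 CPM in control mice and 355, 624, 351, and 257 CPM in NPmut mice (log2 fold change 0.37, SE 0.22, adjusted p = 0.323). The highest and the lowest value of this gene over all 13 mice both belonged to NPmut mice. Hist1h4h did not overlap between the groups, at 114, 121, and 106 CPM against 151, 270, 129, and 122 CPM, and did not pass (log2 fold change 0.57, SE 0.22, adjusted p = 0.125). In all, 11 members were higher in every NPmut mouse than in any control mouse, against 10.4% of all genes, and Hist3h2a was lower in every one, against 11.5%. Without mouse 2 the first count was again 11, against 13.3%.

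**Figure D4:**
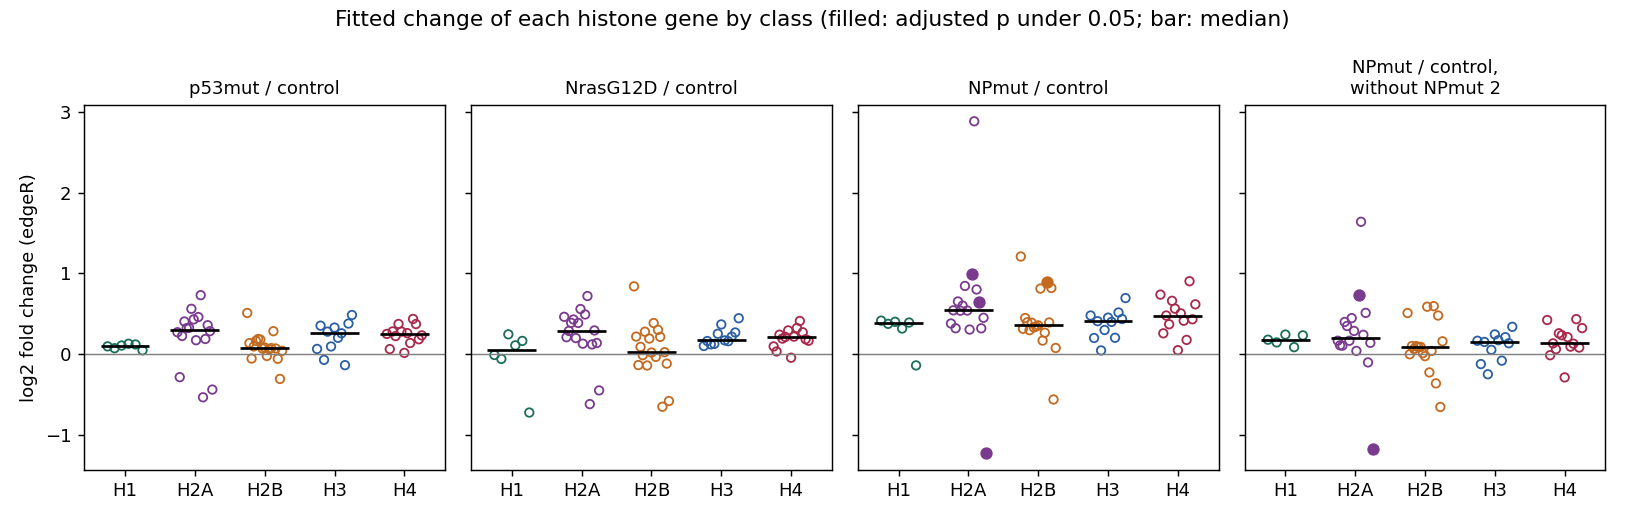
Fitted log2 fold change (vertical axis) of each tested histone gene by class (horizontal axis) for p53mut, NrasG12D, and NPmut mice against control mice, and for NPmut mice without mouse 2, with filled points for adjusted p under 0.05 and bars at the class medians. The class medians of NPmut mice run from 0.36 for H2B to 0.54 for H2A, and from 0.09 to 0.20 without mouse 2.

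The p53mut mice were compared with control mice to see the change with mutant p53 alone. No histone gene passed in the fit of all 13 mice (edgeR), where 0% of all genes were called, and 0 passed by DESeq2 (share of all genes not given). In the edgeR fit none had an unadjusted p under 0.05, against 2.33% of all genes. That fit estimates the spread of a gene from all 4 groups together. The median SD of a member on the log2 scale was 0.52 in NPmut, 0.20 in control, and 0.12 in p53mut mice. The fitted changes were small and mostly above 0 (54 of 63, median 0.19 against 0.00 over all genes). In CPM, 22 members were higher in every p53mut mouse than in any control mouse, beside 5.47% of all genes tested (none was lower in every one, against 5.71%), and 24 were so without control mouse 3, beside 9.36%. They were 9 of 13 H4, 5 of 11 H3, 6 of 16 H2A, 1 of 17 H2B, and 1 of 6 H1 genes. H4 genes as a class summed to 1165, 1156, and 1138 CPM in p53mut mice and 1018, 1011, and 905 CPM in control mice, and the groups did not overlap. H2A genes summed to 2047.5, 2316, and 2083 CPM against 1912, 1964, and 1566 CPM, again without overlap, whereas the sums of H1, H2B, and H3 genes overlapped. The sum of all 67 genes did not overlap either, nor did the plain share of the library, at 0.760%, 0.792%, and 0.793% in p53mut mice against at most 0.738% in control mice. Same-numbered control and p53mut mice are paired further on, although the labels do not pair them or say what the number marks. Matched by this number, the H2B sum was higher in the p53mut mouse of every pair (790, 759, and 661 against 728, 735, and 600.0 CPM). So was the H3 sum (562, 587, and 540 against 487, 544, and 424 CPM). The H1 sum was lower in pair 1 (2929 against 2955 CPM) and higher in the other pairs. Genes of the clusters share the mice and part of their sequence, so that the 22 are not independent of each other. Other RNA without a poly(A) tail, a list described further on, was also above the control mean in these mice, with median log2 differences of 0.60, 0.49, and 0.81 and with 6, 8, and 7 of its 8 tested genes above that mean. Its median log2 fold change was 0.64 (edgeR, none of the 8 passed and 2 had an unadjusted p under 0.05), and its part in the histone values was not tested.

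Control and p53mut libraries of the same number deviated together over all genes, and the number was therefore also put as a block into a fit of these 6 libraries. The labels do not pair these mice or say what the number marks. Since the block was chosen from these same data after seeing them, no independent support comes from this fit. In it 4 of 62 members passed, all H2A, against 0.336% of the 16685 genes tested, and 27 of 62 had an unadjusted p under 0.05, against 8.41% of genes. Hist1h2ah (log2 fold change 0.56, adjusted p = 0.00367), Hist1h2ai (0.43, adjusted p = 0.0106), and Hist1h2an (0.46, adjusted p = 0.0119) were higher in p53mut mice, and Hist1h2ap was lower (-0.56, adjusted p = 0.0284). For Hist1h2ah the SE was 0.079 here and 0.36 in the fit of all 13 mice without a block. These fits differ in both the mice and the block, and the part of each was not tested. In the fit of all 13 mice with the replicate number as a block, none of these 4 passed, nor did any other member. The share of all genes that passed there is not given, so nothing particular to histone genes can be read from this count. Hist1h2ap has the same coding sequence as Hist1h2ao, and the sum of both was 60.5, 44.9, and 44.3 CPM in control mice and 46.3, 28.2, and 31.4 CPM in p53mut mice. The groups overlapped, but within every pair of the same number this sum was lower in the p53mut mouse.

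In NrasG12D mice against control mice, which addresses oncogenic Nras alone, no histone gene passed (edgeR, 0.00562% of all genes called), nor by DESeq2 (share of all genes not given). The H2A genes Hist1h2ai, Hist1h2af, and Hist1h2ab had an unadjusted p under 0.05 (4.76%, against 9.23% of all genes), with log2 fold changes of 0.56, 0.43, and 0.46 and adjusted p from 0.524 to 0.541. The median over members was 0.19, and 3 members (Hist2h3c2, Hist1h4h, Hist1h1c) were higher in every NrasG12D mouse than in any control mouse, against 10.9% of all genes, and none lower in every one, against 10.2%. Mouse 1 of this group lay at the control level and mouse 2 was the highest of the 13 mice after NPmut mouse 2.

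Against the single mutants the count of histone genes past the threshold was 0 in the fit of all 13 mice and depended on the setting. With p53mut mice as the reference, 0 of 63 members passed (edgeR) where 9.95% of all genes did, and 8 (12.7%) had an unadjusted p under 0.05, against 24.0% of all genes. With NrasG12D mice as the reference, 0 passed where 8.88% of all genes did, and 11 (17.5%) had an unadjusted p under 0.05, against 24.1%. With no filter on low counts 5 members passed against p53mut mice (5.14% of all genes) and 7 against NrasG12D mice (4.59%), and with the replicate number as a block 5 passed in each (12.6% and 13.3% of all genes). By DESeq2 1 member passed in each, Hist3h2a, which was lower in NPmut mice (edgeR log2 fold change -0.79, adjusted p = 0.0724, and -0.78, adjusted p = 0.0795). The median change over members was 0.24 and 0.26, and it turned to -0.06 and -0.04 without NPmut mouse 2. In all NPmut mice Hist1h2an and Hist2h2aa2 lay above every p53mut mouse, 2 members against 9.1% of all genes, and no member lay below every p53mut mouse, against 10.5%. Hist2h2aa2 also lay above every NrasG12D mouse (1 member against 9.34%), and Hist3h2a lay below every NrasG12D mouse (1 member against 11.2%). Both comparisons share the NPmut mice.

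The interaction asks whether the change in NPmut mice departs from the sum of both single changes on the log2 scale. It passed for no histone gene (edgeR, against 1.74% of all genes), nor by DESeq2 (share of all genes not given). Hist1h2ap alone had an unadjusted p under 0.05 (1.95, SE 0.80, adjusted p = 0.261), against 16.1% of all genes. The median over members was 0.06, and -0.26 without NPmut mouse 2.

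A few cluster genes are known to be also made as polyadenylated mRNA, among them the linker gene Hist1h1c and the H2B genes Hist1h2bc and Hist2h2be. Hist1h1c was at 552, 576, and 500.0 CPM in control mice and 543, 935, 684, and 705 CPM in NPmut mice (log2 fold change 0.40, SE 0.16, adjusted p = 0.116). Hist1h2bc had 79.1, 71.3, and 59.4 CPM in control mice and 81.1, 155, 57.1, and 87.6 CPM in NPmut mice (adjusted p = 0.304), again with mouse 2 apart. Hist2h2be was low, at 5.58, 4.76, and 6.37 CPM in control mice and 2.98, 4.44, 5.20, and 2.38 CPM in NPmut mice, and the groups overlapped (log2 fold change -0.56, SE 0.28, adjusted p = 0.218). Of the genes known from testis, Hist1h1t stayed at 1.07 CPM or less and Hist1h2aa at 0.455 CPM or less in every mouse, and Hist1h2ba reached 5.32 CPM in NPmut mouse 2 against 0.618 to 3.28 CPM elsewhere.

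Members with and without the stem-loop in their gene model had similar medians, which were not tested against each other. In NPmut mouse 2 the median ratio to the control mean was 2.01 over the 40 tested members with the motif and 2.15 over the 23 without it, and 36 and 22 of them were at their highest there. H2A and H2B genes are often transcribed away from each other from a shared promoter region. In the clusters 13 pairs of members started within 1000 bases of each other in opposite directions, 12 of them an H2A with an H2B gene, and in 10 of the 11 pairs with both members tested the fitted changes in NPmut mice were both above 0, where 60 of all 63 members were. The other pair was Hist2h2ac (0.45) and Hist2h2be (-0.56). Without NPmut mouse 2 both were above 0 in 8 pairs, so that nothing particular to the pairs can be read from the count.

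The summed level of other RNA without a poly(A) tail was highest in the same mouse. The sum over a list of 9 (Rn7sk, Rmrp, Rpph1, Rny1, Rny3, Terc, and the 7SL genes Rn7s1, Rn7s2, and Rn7s6) was 750, 1005, and 964 CPM in control mice and 1476, 3499, 870.0, and 1508 CPM in NPmut mice. Rn7s2, a 7SL gene, gave most of it, with 2490 CPM in NPmut mouse 2 against 459 to 1068 CPM in the other 12 mice. Rpph1 and Rn7s6 passed as higher in NPmut mice, 2 of 8 tested against 5.38% of all genes (log2 fold changes 1.49 and 2.20, adjusted p = 0.0119 and 0.0482). Rn7sk, the RNA of a complex that holds back transcription elongation, did not pass (0.67, adjusted p = 0.0900). Not every gene followed the sum: Rn7sk was highest in NPmut mouse 1, Terc in NrasG12D mouse 2, and Rny1 in NrasG12D mouse 1. In the single mutants the sum was 935, 1079, and 1350.3 CPM (p53mut) and 1100.0, 1504, and 949 CPM (NrasG12D), so that NrasG12D mouse 2, next to NPmut mouse 2 in histone RNA, was above all control mice here too, while NPmut mouse 3 was within the control range. The part of this RNA in the histone result was not tested.

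Replacement histones are encoded outside the clusters, mostly from polyadenylated mRNA, and can be made outside S phase. Their sum was 1.59 times the control mean in NPmut mouse 2 and 1.18 to 1.29 times in the other NPmut mice. H2afy (macroH2A, log2 fold change 0.49) and H2afj (0.58) rose, with adjusted p = 0.0320 and 0.0180, and the linker variant H1fx fell by 0.63 on the log2 scale (adjusted p = 0.00507). These were 3 of 11 tested, against 10.9% of all genes in either direction. H2afz (0.11), H2afx (0.34), H3f3b (0.25), and H1f0 (0.11) did not pass, with adjusted p from 0.221 to 0.811.

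Genes that make and process histone mRNA summed to 0.931 to 1.03 times the control mean in NPmut mice. Among 15, 1 passed, against 10.9% of all genes. It was Cpsf2, a subunit of the cleavage complex, which fell by 0.39 (adjusted p = 0.0217). Slbp, the stem-loop binding protein, did not pass (0.13 on the log2 scale, adjusted p = 0.438) and was at 146 CPM in NPmut mouse 2 against 109.6 to 132 CPM in control mice. Npat, the coactivator of histone promoters, was at 51.7 CPM in that mouse, its lowest value over the 13 mice, with a group change of -0.19 (adjusted p = 0.352). None of 10 histone chaperones passed (edgeR, against 10.9% of all genes), and 0 had an unadjusted p under 0.05, against 25.6% of all genes. In the comparisons of p53mut or NrasG12D mice with control mice, no gene of these lists passed, where 0% and 0.00562% of all genes did.

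Of 25 S phase genes 2 rose, against 5.38% of all genes. These were E2f1 and Tk1 (log2 fold changes 0.52 and 0.51, adjusted p = 0.0105 and 0.0141). The list summed to 1.21 times the control mean in NPmut mouse 2 and to 0.922 to 1.08 times in the other NPmut mice. Of 14 mitosis genes 1 fell, Ccnb1, by 0.51 (adjusted p = 0.0407), against 5.54% of all genes. The mitosis genes summed to 0.730 times the control mean in NPmut mouse 2. That sum was dominated by Mki67, a marker of cycling cells, at 1248 CPM in this mouse against a control mean of 2367 CPM. Without Mki67 the ratio was 0.952, and the median mitosis gene was 0.17 above the control mean on the log2 scale, with 8 of 14 above it. Between the groups Mki67 did not pass (-0.24, adjusted p = 0.457). The position of the sequenced mice in the cell cycle was not measured otherwise here, and its part was not tested. For HSPCs of NPmut mice age-matched to recently injected control mice, the paper on this series reports cell-cycle profiles similar to control.

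**Figure D5:**
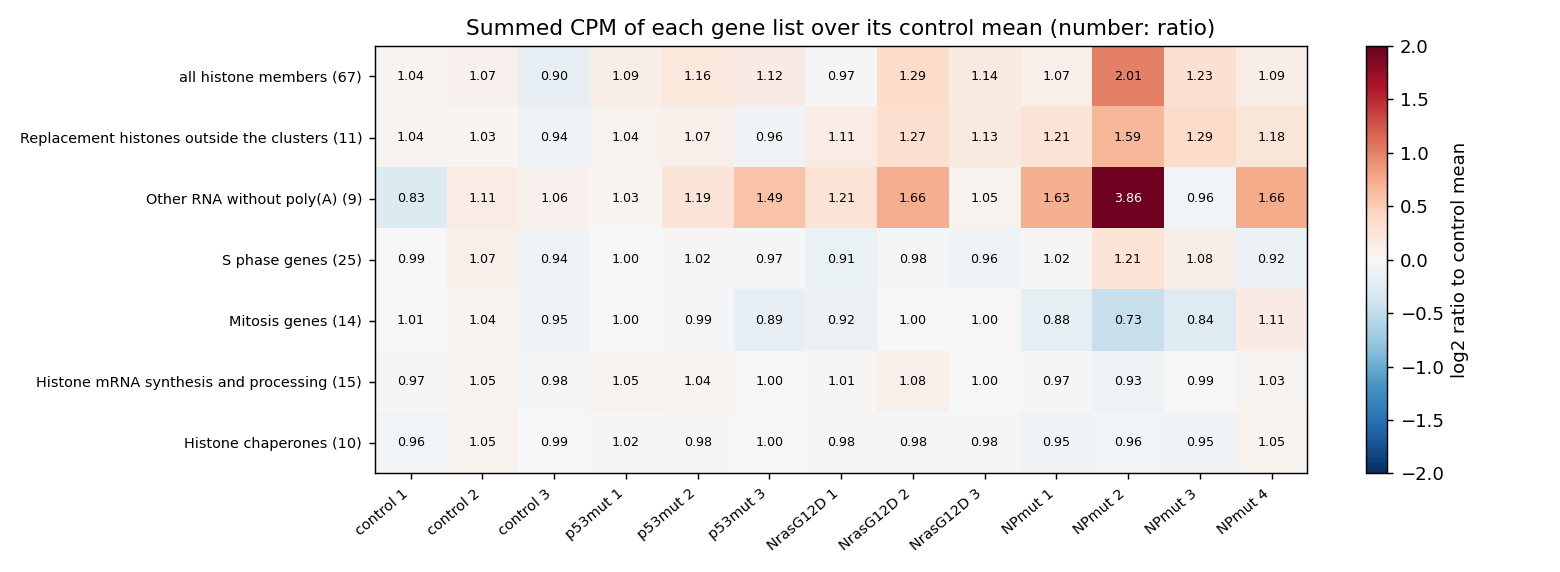
Ratio of the summed CPM of each gene list (rows, number of genes in parentheses) to its control mean in each of the 13 mice (columns), as a number and as colour on a log2 scale. NPmut mouse 2 has 2.01 for histone genes and 3.86 for other RNA without poly(A), and 1.21 and 0.730 for S phase and mitosis genes (0.952 for mitosis genes without Mki67).

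Reads of near-identical copies limit what can be said of single genes. Identical coding sequences were found for Hist1h2ao and Hist1h2ap, Hist1h2bq and Hist1h2br, Hist2h2aa1 and Hist2h2aa2, and Hist1h4m and Hist1h4n. Hist1h2ao stood at 16.4 CPM in NPmut mouse 2, 19.9 times its control mean, but summed with Hist1h2ap the ratio was 3.66. Hist1h4m was 1 of the exceptions in this mouse (1.23 times) while its twin Hist1h4n was at 3.40 times, and their sum was at 2.32 times.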

How the data were processed

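Total RNA of sorted BM cells from 13 mice was sequenced. The authors deposited raw counts per Ensembl gene. The submitters' processing notes name STAR 2.6.1d, R 3.6.1, DESeq2 1.26.0, and the build GRCm38.p6. The counting program, its strand setting, and its treatment of reads that match several genes are not given in the sources used here, and for near-identical histone genes these decide where reads go. Symbols, lengths, and coordinates came from GENCODE M21 (GRCm38), and promoters from RefSeq (GRCm38.p6). Of 54838 identifiers, 29 were not in M21 and held 0.0032% of reads.

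Library totals ran from 12576174 to 29124022 counts, and a deeper library has less counting error. Counts were scaled with TMM, filtered with filterByExpr, and tested with the robust quasi-likelihood test of edgeR 4.0.16 in R 4.3.3, in 1 fit of all 13 libraries with 4 group means. Benjamini-Hochberg adjustment ran over the 17795 genes tested, and an adjusted p-value below 0.05 was a call. The code was tested on simulated data. CPM values use TMM-scaled totals. RPKM values, computed here from the deposited counts, also divide by exonic length. Per-mouse log2 differences used a prior count of 2.

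The histone genes and all lists were chosen with earlier results of these data known. Named were the 2 members of highest mean RPKM in each class, every called member, members with known poly(A) forms, testis members, and 8 genes from other lists. Other genes were named after their values were seen. Alternatives were RLE factors, library totals, DESeq2 1.42.0, other filters, fits of the compared groups alone, a replicate block, and each library left out. Same-numbered control and p53mut libraries correlated at 0.166, 0.163, and 0.152 in their deviations from the group means, which met the rule for a pairing (every pair above 0.1). The labels do not say what the number marks. The other groups did not meet it. That paired fit and the counts of members above all control mice without single libraries were added after seeing the data. With 3 or 4 mice per group, p-values rest on the spread between these mice.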

Additional observations from a re-analysis of the deposited data

Results flagged for a closer look

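With 4 mice in the NPmut group, the gap of the most extreme mouse to its nearest neighbour was divided by the range of the group, and 26 levels (20 named members and 6 sums) were examined against Dixon's 95% limit. For 5 of them NPmut mouse 2 stood apart on the high side, where chance gives about 1 in 20. These were the linker gene Hist1h1b (0.869), the H2A gene Hist1h2ak (0.913), the H2B gene Hist1h2bj (0.914), the sum of H2B genes (0.929), and the sum of all histone genes (0.832). The 5 are not independent, since they come from the same mouse and the sums contain the members.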

How the results depend on the processing

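Between NPmut and control mice, 4 members passed. The count was 9 with DESeq2 (15% of all genes called), 24 with no filter on low counts (6.33%), 2 with only the compared groups (5.45%), and 19 with a replicate block (15.5%), and it ran from 0 (without control mouse 3, 4.41%) to 8 (without NPmut mouse 4, 12.3%) as single libraries were left out. The count with at least a 2-fold change, 1, became 2 with DESeq2 (7.43%), 3 with no filter (3.49%), 3 with the block (7.24%), and 0 to 3 with libraries left out. In the block NPmut mouse 4 has no partner, and same-numbered control and NPmut libraries correlated at -0.04, 0.26, and -0.04, which did not meet the rule for a pairing. For p53mut against control mice the paired fit of both groups alone gave 4 in place of 0 (0.336% of all genes). For NrasG12D against control mice, no filter gave 1 in place of 0 (0.607%). For NPmut against p53mut mice, 0 became 1 with DESeq2 (13.8%), 5 with no filter (5.14%), 5 with the block (12.6%), and 0 to 2 with libraries left out. For NPmut against NrasG12D mice, 0 became 1 (13%), 7 (4.59%), 5 (13.3%), and 0 to 3 under the same settings. The interaction stayed at 0 throughout. The cause of these shifts was not tested.

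With libraries left out, the fitted change between NPmut and control mice ran from -7.35e-05 (without NPmut mouse 2) to 0.45 (without NPmut mouse 3) for Hist1h2bb and from -0.43 (without control mouse 2) to 0.68 (without control mouse 3) for Hist1h1t, which was above 0 without NPmut mouse 1 (0.08) and with the block (0.029) too. For Hist2h2aa2 between NrasG12D and control mice it ran from -0.016 (without NrasG12D mouse 1) to 0.39 (without control mouse 1) and was -0.015 without control mouse 3. None of these passed. The log2 ratio of summed histone RNA, 0.44, was 0.30 with library totals and 0.18 without NPmut mouse 2.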
